A study of Canis lupus familiaris with 17 samples.

Results

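Cell cycle genes are the genes that cells use to copy their DNA and to divide. A set of 44 such genes was listed by symbol, and 42 of them had a row among the 20257 genes counted in each matrix. CCNB1 and BIRC5 had no row by these symbols and are not analysed here. By the step in which their products are best known to act, 20 of the 42 members were S phase genes, 21 were G2/M genes, and DIAPH3, a formin that builds actin filaments, was put in neither group.

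Blood leukocytes of 17 client-owned dogs of several breeds and both sexes had been isolated by Ficoll density centrifugation, their red cells had been lysed, and single cells had been captured for 3′ RNA sequencing, 1 library per dog. Of these dogs, 7 were clinically healthy and 10 had osteosarcoma (OS), a malignant bone tumor, with the primary tumor in place and no treatment given. The labels give the genotype of both groups as Wt. The youngest and the oldest dogs both had OS, so age varied more in that group, and no sequencing batch is given in the sources used here. The authors name the age difference of the groups as a possible confounder of their comparison.

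In S phase, enzymes such as ribonucleotide reductase and thymidylate synthase supply nucleotides, the MCM helicase opens the double helix, and polymerases copy it. In G2 phase and mitosis, cyclins and kinases such as CDK1 and PLK1 drive the cell into division, condensin and topoisomerase II pack the chromosomes, and kinesins build the spindle and help to separate the daughter cells. Most leukocytes in blood are resting, whereas lymphocytes that have met antigen and young plasma cells are known to divide, and mature granulocytes no longer do.

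The counts were unique molecular identifiers (UMIs), each standing for 1 captured RNA molecule. A matrix held between 7740230 and 56510134 UMIs. After filtering, 76177 leukocytes were analysed, 32841 from healthy dogs and 43336 from dogs with OS, between 1216 and 6575 per dog. Median depth ran from 3681 to 6846 UMIs per cell over the dogs, and the groups differed in depth by less than the spread between dogs (two-sided exact Wilcoxon test over dogs, p = 0.887, used for all comparisons of dogs from here on). Any pair of libraries shared at most 22 cell barcodes, or 0.375% of the smaller library. Lineages were formed by clustering without the members or other cell cycle genes and were named from marker genes, so that a name means resemblance. Each dog was 1 sample, and p-values over dogs measure the spread between animals.

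Most leukocytes held few of the members. No member was detected in 13178 cells (17.3%), and between 1 and 3 members in 50598 cells (66.4%). In 12401 cells, or 16.3%, 4 or more members had at least 1 UMI. The number of cells fell smoothly across that limit, from 12282 cells with 3 members to 6548 with 4 and 3155 with 5, so the limit cut through a continuous distribution. The cells on each side of it also differed in depth: the median cell held 3307 UMIs where no member was detected and 7131 UMIs where 4 were.

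Beyond about 10 members the distribution changed shape. There were 114 cells with 9 members, 55 with 10 and 39 with 11, and from 12 members onward a long flat tail reached up to 40 members. In all, 430 cells (0.564%) held 10 or more members and 198 cells held 20 or more. The median cell with 10 or more members held 14070 UMIs. The limit of 10 members was added after seeing the data, and values at both limits are given from here on.

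**Figure D1:**
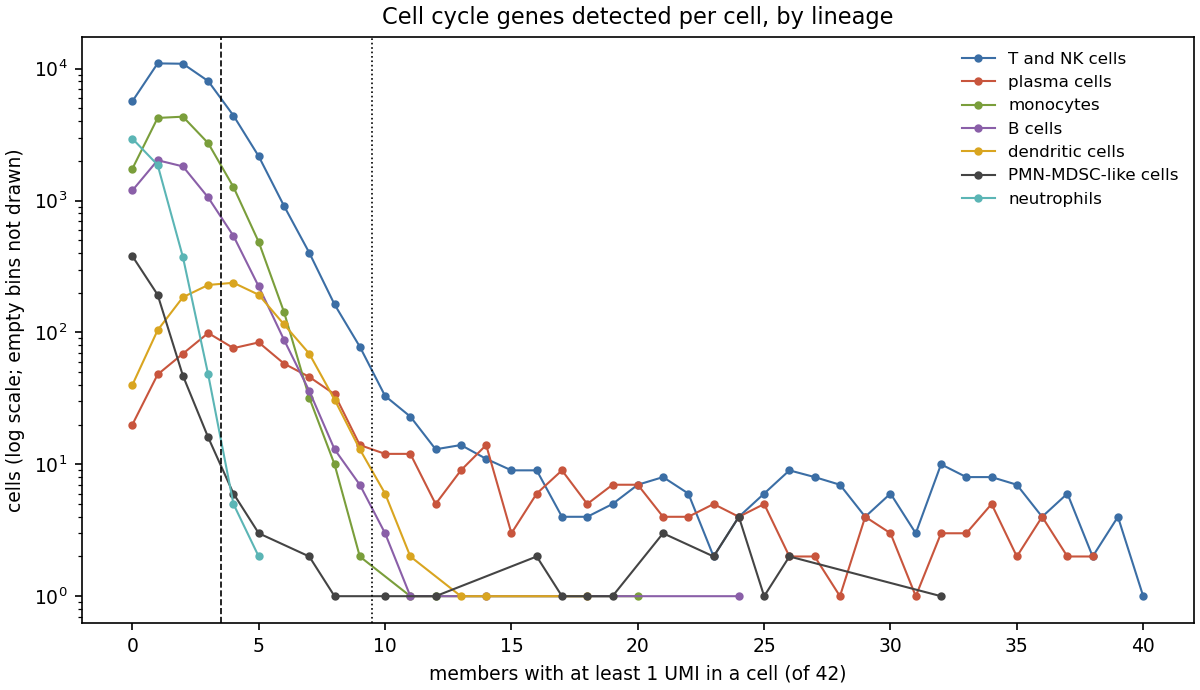
Number of cells (log scale) against the number of the 42 members with at least 1 UMI in the cell, for 7 lineages; the dashed line marks 4 and the dotted line 10 members. T and NK cells fall steeply up to about 10 members and then run on as a flat tail, plasma cells spread over the whole range, and no neutrophil reaches 10 members.

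Cells with 4 or more members were present in every lineage and were commonest in the lineages with the deepest cells. Among T and NK cells, 8371 of 43946 (19.05%) reached the limit, with 22.3% of CD4 T cells and 13.2% of CD8/NK cells. B cells stood at 13.04% and monocytes at 12.98%, at a median depth of 4021 and 11136 UMIs. The shares were highest in plasma cells, at 65.9% of 693 cells, and in dendritic cells, at 54.6% of 1228 cells, the lineages with the deepest cells (median 14828 and 15020 UMIs). Mature neutrophils, which do not divide, reached 4 members in 7 of 5239 cells (0.134%), but at a median of only 1721 UMIs.

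To set depth equal, each cell was thinned to 2000 UMIs, and shallower cells were left out. Few ordinary cells then kept 4 members. The share was 1.60% in T and NK cells, 1.42% in B cells, 0.110% in monocytes and 0.751% in dendritic cells, against 0.198% (3 of 1515 cells) in neutrophils. In plasma cells it remained at 15.5%, or 102 of 658 cells (Clopper-Pearson 95% interval from 12.8 to 18.5%). Thinned monocytes thus did not lie above neutrophils, although both carried CDC6 (described further on), while plasma cells lay far above both. Such intervals cover counting error only, and a comparison between clusters is a description, because clusters were formed from the same cells.

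Cells with 10 or more members were commonest in plasma cells, as a share of the lineage. Plasma cells held 145 of the 430 such cells (33.7%), which was 20.9% of their number (95% interval from 17.95 to 24.1%). T and NK cells held 245 (57.0%), and as these are the most numerous lineage this was 0.557% of them, next to 0.564% of all leukocytes. Within T cells, 140 were CD4 T cells (0.602%) and 92 were CD8/NK cells (0.797%), against 11 of 5938 other T cells (0.185%), the clusters with CD4 under 3 times CD8A and no raised CD8/NK markers, whose type was not settled. The remaining 2 lay among 3196 T cells that the markers did not assign to any of these classes. When cells were clustered again without upper limits on depth, the barcodes within the limits gave 181 of 24168 CD4 T cells (0.749%) and 49 of 11509 CD8/NK cells (0.426%), so the order of these 2 classes depended on the clustering. There were 11 among dendritic cells, 6 among 6996 B cells (0.0858%), 3 among 14962 monocytes and 0 among neutrophils, where a count of 0 allows a share of up to 0.0573%. Eosinophils and basophils had 0 of 2446 cells, which allows up to 0.123%, but in the clustering without upper limits 7 of 2653 such cells within the limits (0.264%) and 1 of 5253 neutrophils held 10 or more members, so these zeros also depended on the clustering.

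Immature neutrophils with markers of polymorphonuclear myeloid-derived suppressor cells (PMN-MDSC-like cells) formed the remaining group, with 20 of 667 cells (3.00%, 95% interval from 1.84 to 4.59%) at 10 or more members. Of these 20 PMN-MDSC-like cells, 8 came from dog 2 with OS (of 201 cells), 7 from dog 5 with OS (of 204), 1 from dog 10 with OS, 2 from healthy dog 3 and 1 each from healthy dogs 2 and 5. Dog 9 with OS had 0 of 97. In the clustering without upper limits, 12 of 454 cells in this class (2.64%) held 10 or more members. Only 5 dogs, all with OS, had at least 25 cells of this kind, so the groups were not compared.

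The share of cells with 4 or more members varied widely between dogs within either group, and the groups overlapped in every lineage tested. Over all leukocytes it ran from 10.3% (median 17.1%) to 27.2% in healthy dogs and from 8.72% (median 16.0%) to 23.0% in dogs with OS (exact Wilcoxon test, p = 0.601, adjusted p = 0.904 over 11 lineages). In T and NK cells it ran from 12.3% (median 17.2%) to 35.2% and from 10.0% (median 17.8%) to 26.5% (same exact test, p = 0.669). Healthy dog 2 was the highest and dog 10 with OS the lowest in T and NK cells.

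No lineage passed 0.05 in this comparison. The smallest p, 0.0769 by the exact test, was that of eosinophils and basophils, where all 8 dogs with OS were at 0 and healthy dogs lay between 0 and 3.49% with a median of 0. It rested on 10 cells and, with most dogs tied at 0, was the smallest p that these values could give. None of the 10 cells reached 4 members when CDC6 was not counted (exact p = 1.0, fixed because every dog was then at 0). Other T cells came next (same exact test, p = 0.315). CD4 T cells (p = 0.601), CD8/NK cells (p = 0.962), B cells (p = 0.740), plasma cells (p = 0.432), monocytes (p = 0.669), dendritic cells (p = 0.491) and neutrophils (p = 0.837) had larger p values by the same exact test. Without ties, the smallest p that 7 dogs against 10 allow is 0.000103. After thinning to 2000 UMIs, the share of B cells was lower by 0.676 percentage points in dogs with OS (exact p = 0.0417, adjusted p = 0.417 over the lineages thinned).

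This share followed depth. Across the 17 dogs, the share of T and NK cells with 4 or more members correlated with the median number of UMIs per T and NK cell (Pearson r = 0.93, Spearman rho = 0.91, permutation p = 1e-05 for each, the smallest that 100000 permutations give, adjusted p = 9e-05 over 9 relations). Pearson r was 0.96 within the 7 healthy dogs and 0.91 within the 10 dogs with OS, with permutation p values of 0.000992 and 0.00018. Without the 2 dogs farthest from the median depth it was 0.93. With 10 or more members, r was -0.19 (rho = -0.22, permutation p = 0.464 and 0.389), and with 4 or more after thinning it was 0.04 (rho = -0.06, permutation p = 0.873 and 0.816).

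At 10 or more members the groups again overlapped. In T and NK cells the share lay between 0.0844% (median 0.614%) and 0.955% in healthy dogs and between 0.121% (median 0.627%) and 0.842% in dogs with OS (exact Wilcoxon test, p = 0.813). The lowest values were those of healthy dog 4, with 4 of 4738 T and NK cells, and of dog 3 with OS, with 1 of 825, and the highest was that of healthy dog 6, with 25 of 2618. In plasma cells, for dogs with at least 25 of them, the share lay between 11.1% (median 22.2%) and 32.4% in 5 healthy dogs and between 13.6% (median 18.8%) and 29.0% in 7 dogs with OS (exact Wilcoxon test, p = 1.0, smallest possible p 0.00253). Each of these 12 dogs thus had at least 11.1% of its plasma cells at 10 or more members, and no dog in either group stood apart.

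**Figure D2:**
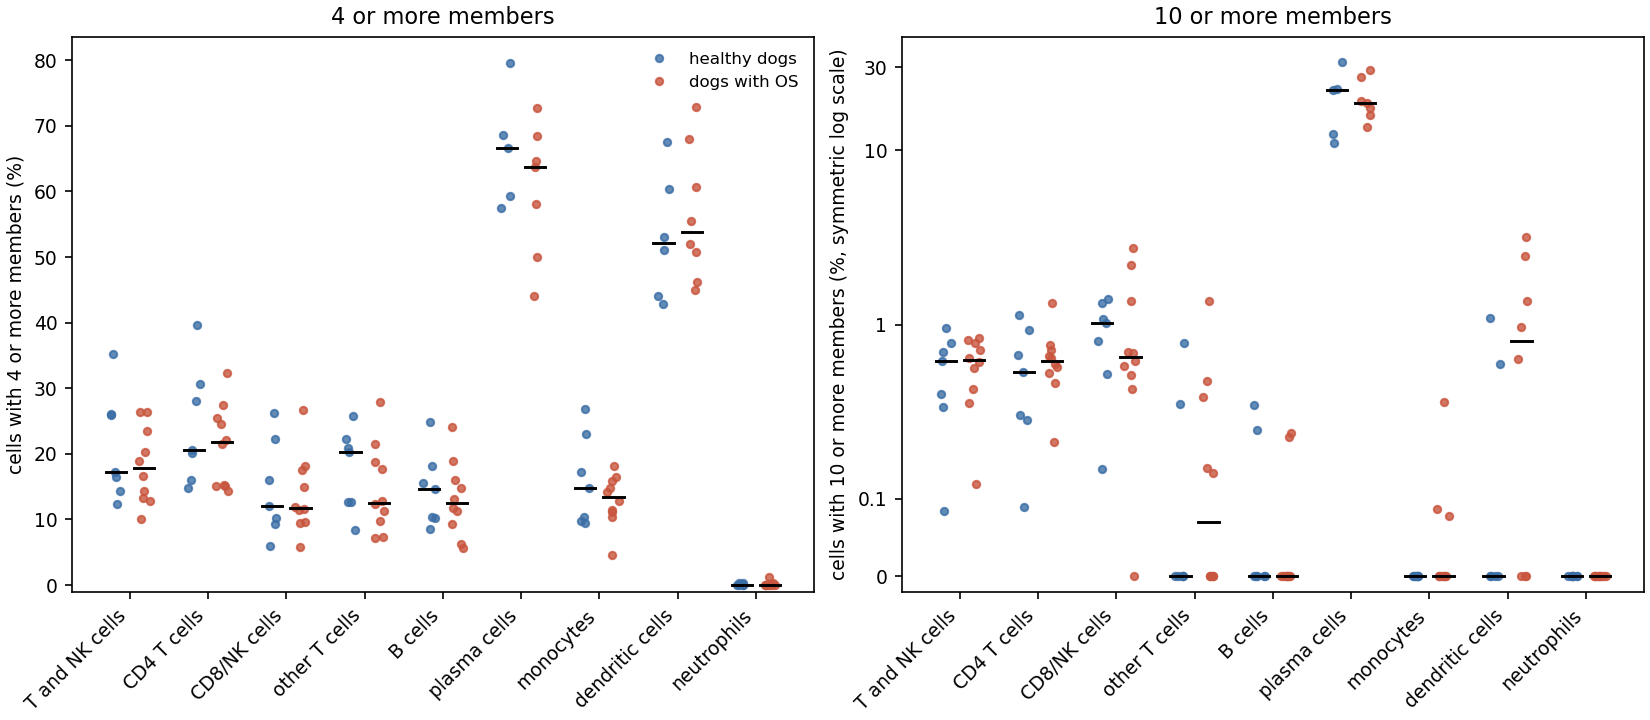
Share of cells with 4 or more members (left, linear axis) and with 10 or more members (right, symmetric log axis) by lineage; each point is a dog with at least 25 cells of the lineage, blue for healthy dogs and red for dogs with OS, and black bars are medians. The groups overlap in every lineage, and plasma cells stand above all other lineages at 10 or more members, from 11.1 to 32.4%.

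The upper limits of 4500 genes and 20000 UMIs per cell removed many cells of this kind. Of 2424 leukocyte barcodes above these limits that were not scored as doublets, 798 (32.9%) held 10 or more members, against 430 of 76192 (0.564%) within the limits. Barcodes above the limits made up 65.0% of all leukocytes with 10 or more members. When cells were clustered again without upper limits, 590 of 806 plasma cells above the limits (73.2%) and 147 of 679 within them (21.6%) held 10 or more members. After thinning to 2000 UMIs, 64.0% of plasma cells above the limits and 16.0% of those within still held 4 or more members. The difference was thus also present when both were read at the same number of UMIs.

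Among T and NK cells, 144 of 229 barcodes above the limits (62.9%) held 10 or more members. Among monocytes above the limits 13 of 895 did (1.45%). The median depth above the limits was 24485 UMIs in T and NK cells and 22314 UMIs in monocytes. After thinning to 2000 UMIs, 117 of 229 T and NK cells above the limits (51.1%) and 1.60% of those within held 4 or more members. In monocytes these thinned shares were 0.559% (5 of 895) and 0.110%. The part of depth in the shares with 10 or more members was not tested. Of barcodes above the limits that were scored as doublets and removed, 128 of 567 held 10 or more members, and of doublets within the limits 40 of 3938 did. Whether doublets remain among the barcodes above the limits was not tested. Without upper limits the plasma cell share with 10 or more members ran from 39.8% (median 54.3%) to 56.0% in healthy dogs and from 30.0% (median 47.1%) to 57.5% in dogs with OS (exact Wilcoxon test, p = 0.445).

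S phase genes led among cells with 4 or more members. A cell was called S-leading when more S than G2/M members were detected in it, and G2/M-leading in the opposite case. Of the 8371 T and NK cells with 4 or more members, 84.2% were S-leading and 402 (4.802%) were G2/M-leading. Monocytes with 4 or more members were S-leading in 80.9%. Over all cells, a median of 6.50% held a given S member and 1.46% a given G2/M member. The part of this difference in the lead was not tested, so an S lead does not by itself place a cell in S phase. The G2/M-leading share was 4.43% in monocytes and 6.25% in B cells, but 40.3% in plasma cells (184 of 457) and 46.9% in PMN-MDSC-like cells (15 of 32). In T and NK cells it ran from 3.58% (median 4.59%) to 7.81% in healthy dogs and from 2.47% (median 4.804%) to 7.84% in dogs with OS (exact Wilcoxon test, p = 0.887).

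With 10 or more members, G2/M genes led in a larger part of the cells. They led in 80 of 245 T and NK cells (32.7%), in 62 of 140 CD4 T cells (44.3%) and in 14 of 92 CD8/NK cells (15.2%). They led in 83 of 145 plasma cells (57.2%) and in 10 of 20 PMN-MDSC-like cells. Among T and NK cells in dogs with at least 10 such cells, the G2/M-leading share averaged 40.7% ± 6.93 (SD, n = 5) for healthy dogs against 27.8% ± 11.6 (SD, n = 8) for OS (exact Wilcoxon test, p = 0.0653), with ranges that overlapped between 31.3% and 42.9%. Without upper limits the difference was -3.83 percentage points (same exact test, p = 0.458).

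Many of these cells held both kinds of gene at once. Of the 245 T and NK cells with 10 or more members, 51.8% held at least 5 S and at least 5 G2/M members, 37.6% held 5 S members without 5 G2/M members, and 10.6% the reverse. Of the 145 plasma cells, 57.9% held 5 of each, 15.9% only the S and 26.2% only the G2/M members.

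**Figure D3:**
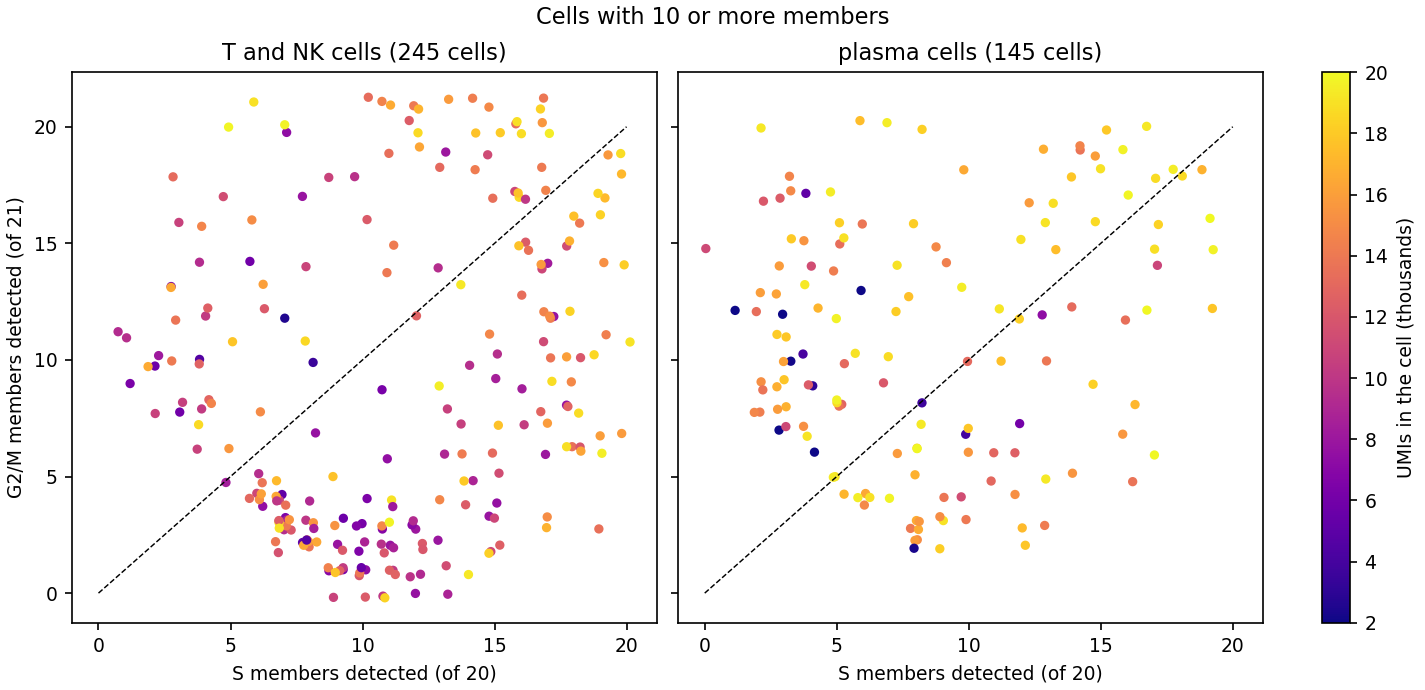
S members (of 20, horizontal) against G2/M members (of 21, vertical) detected in each cell with 10 or more members, for 245 T and NK cells (left) and 145 plasma cells (right); the color gives the depth of the cell and the dashed line marks equal numbers. Points are shifted slightly at random so that cells with equal numbers can be told apart; they spread on both sides of the line, with 32.7% of T and NK cells and 57.2% of plasma cells above it.

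The members differed widely in how far they were restricted to cells that also held many of the others. For each member, cells were classed by the number of other members detected, so that a gene did not count toward its own class. Of the UMIs of an S member, a median of 8.86% (range 1.13 to 66.9%) lay in cells with 10 or more other members, and 11 of the 20 were under 10%. Of the UMIs of a G2/M member, a median of 41.0% (range 4.45 to 76.8%) lay in such cells, and 2 of the 21 were under 10%. The members were detected in few cells, a median of 6.50% of all cells for an S member and 1.46% for a G2/M member.

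Most of the members with over 50% of their UMIs in cells with 10 or more others were G2/M genes. The share of UMIs in cells with 10 or more other members was 76.8% for CCNA2 (cyclin A2, which activates CDK2 and CDK1), 72.0% for UBE2C (the ubiquitin-conjugating enzyme that works with the anaphase-promoting complex) and 64.6% for CENPF (a kinetochore protein). It was 62.7% for TOP2A (topoisomerase II alpha, which untangles DNA), 60.7% for CCNB2 (cyclin B2), 57.4% for MKI67 (the proliferation marker Ki-67) and 54.9% for BUB1 (a spindle checkpoint kinase). Only 2 S members were past 50%: CLSPN (claspin, a replication checkpoint adaptor) at 66.9% and RRM2 (the regulated subunit of ribonucleotide reductase) at 60.1%. TK1, the thymidine kinase of dividing cells, followed at 44.8%.

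Other members had most of their UMIs outside the cells with 10 or more others. RRM1, the larger ribonucleotide reductase subunit, had 3.77% of its UMIs in cells with 10 or more other members, against 60.1% for its partner RRM2. POLA1, the catalytic subunit of DNA polymerase alpha, had 3.67%, and ATAD2, a bromodomain ATPase, 3.63%. Among the helicase subunits the share ran from 5.22% for MCM7 and 6.01% for MCM4 through 8.37% for MCM6, 11.3% for MCM2 and 15.4% for MCM3 to 35.8% for MCM5. The 2 G2/M members under 10% were KIF20B, a kinesin of cytokinesis, at 4.45%, and AURKB, the kinase of the chromosomal passenger complex, at 7.11%. Its partner CDCA8 (borealin) stood at 46.5%, although with 241 UMIs over all cells.

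In T and NK cells the members were higher with the number of others, which is how the cells were chosen and is given as a description. CENPF was at 0.987 CPM (the gene's UMIs scaled to a common total of UMIs in the summed cells) in cells with fewer than 4 other members and at 356 CPM in cells with 10 or more. TOP2A was at 1.58 and 349 CPM, MKI67 at 1.19 and 338 CPM, RRM2 at 0.833 and 233 CPM, and CCNB2 at 0.171 and 79.3 CPM. The step was smaller for POLA1, at 64.3 and 207 CPM, ATAD2, at 71.0 and 235 CPM, and KIF20B, at 49.4 and 169 CPM. Levels are compared between cells for a given gene and not between genes, since the capture of a gene's 3′ end is not known.

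Plasma cells kept some members without the rest. MKI67 was at 55.0 CPM in plasma cells with fewer than 4 other members and had a UMI in 36.6% of them, against 0.547% of such T and NK cells. CENPF was at 22.0 CPM in those plasma cells (14.5% of cells) and CENPE, a kinetochore kinesin, at 17.6 CPM (15.7% of cells). In plasma cells with 10 or more others MKI67 reached 392 CPM and had a UMI in 91.8% of cells. TOP2A, by contrast, was at 3.31 CPM in plasma cells with fewer than 4 others, and CCNB2 at 2.16 CPM. The authors' own gene lists, chosen on these dogs, hold MKI67 for plasma cells and 8 members (TOP2A, MKI67, RRM2, DIAPH3, TK1, KIF11, TPX2 and ASPM) for a cycling T cell class, so these levels are not independent of those lists.

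By lineage, with counts summed per dog, plasma cells had the highest median level over dogs for 29 of the 42 members, 19 of the 21 G2/M and 9 of the 20 S members, among 8 lineages. MKI67 was at a median of 153 CPM in plasma cells (range 82.3 to 202 CPM, n = 12 dogs), 5.14 CPM in T and NK cells (2.22 to 13.9 CPM, n = 17), 2.77 CPM in neutrophils (0 to 10.9 CPM), 1.31 CPM in dendritic cells (0 to 8.42 CPM), 1.00 CPM in monocytes (0.262 to 1.66 CPM) and 0.971 CPM in B cells (0 to 3.02 CPM). Among the lineages named here, no dog's plasma cells overlapped with any dog's other cells in MKI67. Every dog's T and NK cells also lay above every dog's monocytes, whereas the other ranges overlapped with each other. The levels in PMN-MDSC-like cells and in eosinophils and basophils are not given here. At 2000 UMIs per cell, MKI67 had a UMI in 21.3% of plasma cells, 0.504% of T and NK cells and 0.594% of neutrophils, so that the share over all T and NK cells did not exceed that of neutrophils at equal depth.

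The S members were spread over more lineages. T and NK cells had the highest level of 3 of them, ATAD2, RRM1 and TYMS, and B cells that of 4, POLA1, MCM4, MCM7 and GINS2. TYMS, the thymidylate synthase, was at a median of 44.3 CPM in T and NK cells (26.8 to 53.3 CPM), 39.8 CPM in plasma cells, 38.2 CPM in B cells (12.6 to 50.7 CPM) and 16.6 CPM in dendritic cells, but at 0.607 CPM in monocytes (0.276 to 1.43 CPM) and 0 in neutrophils and in eosinophils and basophils. The TYMS ranges of T and NK cells and of B cells overlapped, and those of monocytes lay apart from both. Dendritic cells had the highest level of UHRF1, which keeps DNA methylation through replication, at 12.7 CPM (0 to 16.98 CPM), and of KIF23, a kinesin of cytokinesis, at 14.4 CPM (2.77 to 28.1 CPM) next to 14.2 CPM in plasma cells (0 to 23.5 CPM). For KIF23 these ranges overlapped. In neutrophils 27 members and in eosinophils and basophils 28 members had a median of 0.

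CDC6 was high in myeloid cells, and PCNA in granulocytes. CDC6, which loads the helicase onto DNA before replication, was at a median of 282 CPM in eosinophils and basophils (114 to 533 CPM, n = 15 dogs), 169 CPM in neutrophils (118 to 225 CPM), 126 CPM in monocytes (100 to 237 CPM) and 60.2 CPM in dendritic cells (41.1 to 83.1 CPM), against 18.98 CPM in T and NK cells (15.4 to 23.5 CPM). Every dog's eosinophils and basophils, neutrophils and monocytes lay above every dog's T and NK cells in CDC6. At 2000 UMIs, CDC6 had a UMI in 28.1% of neutrophils, 23.7% of monocytes and 3.57% of T and NK cells, and 1.13% of its UMIs lay in cells with 10 or more other members. PCNA, the sliding clamp of the replication fork, was at a median of 56.7 CPM in neutrophils (30.7 to 120 CPM), 30.8 CPM in eosinophils and basophils (9.71 to 88.8 CPM), 11.5 CPM in monocytes (8.45 to 19.4 CPM), 8.81 CPM in T and NK cells (4.97 to 12.4 CPM) and 6.43 CPM in dendritic cells (0.809 to 12.96 CPM). Every dog's neutrophils lay above every dog's T and NK cells in PCNA, while eosinophils and basophils, monocytes and dendritic cells overlapped with T and NK cells.

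Most monocytes with 4 or more members fell below that limit without CDC6, while most dendritic and PMN-MDSC-like cells did not. Cells with more than 4 members stay at the limit even where CDC6 is among them, so these counts do not show how many held it. Leaving CDC6 out was a choice made after seeing the data. It lowered the share with 4 or more members from 12.98 to 5.19% in monocytes, from 54.6 to 44.4% in dendritic cells and from 65.9 to 65.4% in plasma cells. The number of such cells went from 7 to 2 in neutrophils, from 32 to 31 in PMN-MDSC-like cells and from 10 to 0 in eosinophils and basophils. In the RefSeq annotation of the dog (assembly UU_Cfam_GSD_1.0, used for names and order) CDC6 lies between RARA and WIPF2. Whether reads of a neighboring gene enter the CDC6 count was not tested.

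**Figure D4:**
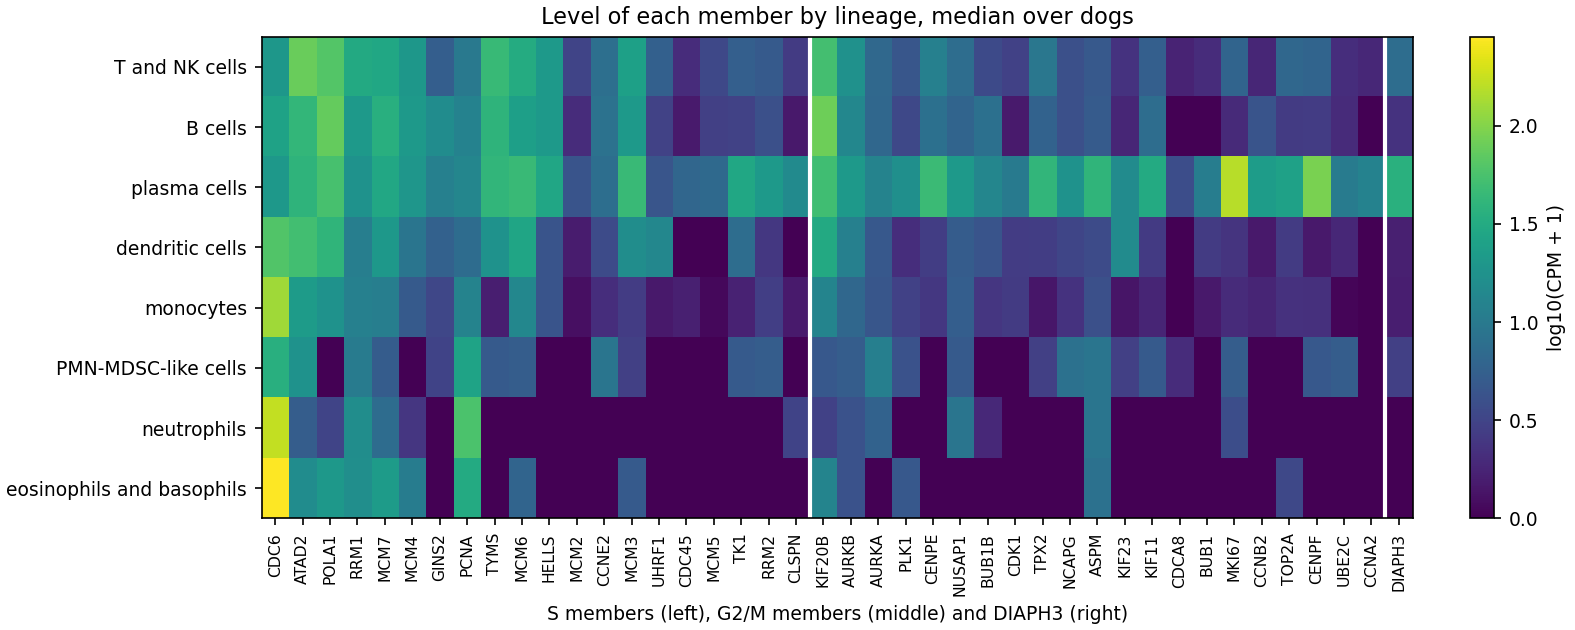
Median level over dogs of each member in 8 lineages, as log10(CPM + 1) by color, with S members at left, G2/M members in the middle and DIAPH3 at right; within a group, genes run from the least to the most restricted to cells with 10 or more other members. The row of plasma cells is bright for most G2/M members, with MKI67 at 153 CPM, and CDC6 and PCNA are bright in rows of granulocytes, where 27 or 28 members have a median of 0.

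Expression of the members was then compared between dogs with OS and healthy dogs on counts summed per dog and lineage, with edgeR's quasi-likelihood test over all genes. A call required a log2 fold change beyond 0.58 in either direction and an adjusted p under 0.01. No member was called in all leukocytes, T and NK cells, CD4 T cells, CD8/NK cells, B cells or monocytes by edgeR or by DESeq2. Among all genes tested, edgeR called 0.0% in each of these lineages, and DESeq2 called 3 genes in all leukocytes, 2 in monocytes and 0 in each of the others. In bulk sums of this kind, fewer cells with a gene and less RNA of it per cell cannot be told apart.

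At an unadjusted p below 0.05 there were 2 of 42 members in all leukocytes (5.73% of all 16254 genes), 0 of 42 in T and NK cells (3.41%), 0 of 42 in CD4 T cells (3.71%), 0 of 42 in CD8/NK cells (4.18%), 2 of 41 in B cells (4.90%) and 1 of 40 in monocytes (5.98%). By edgeR their share was thus near or below that of all genes. DESeq2 had 4 of 42 members at an unadjusted p below 0.05 in all leukocytes (6.37% of all genes), above the share of all genes. It had 0 in T and NK cells (3.31% of all genes), CD4 T cells (3.68%) and CD8/NK cells (3.33%), and 1 each in B cells (3.91%) and monocytes (6.13%).

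GINS2, a subunit of the helicase that opens DNA at the fork, was in this group in all leukocytes and in B cells. In B cells it lay between 12.6 and 27.1 CPM (median 18.004) in healthy dogs and between 9.82 and 25.4 CPM (median 13.1) in dogs with OS. The log2 fold change was -0.54 ± 0.17 (SE, edgeR, adjusted p = 0.957). In all leukocytes GINS2 lay between 4.10 and 7.37 CPM (median 5.20) and between 3.18 and 4.79 CPM (median 3.85) (log2 fold change -0.35 ± 0.14 SE, edgeR adjusted p = 0.753). The groups overlapped in both. GINS2 was highest in B cells (median 14.7 CPM over dogs), and the part of the B cell share in the sum over all leukocytes was not tested.

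KIF20B was the other. It lay between 34.5 and 60.4 CPM (median 45.4) in all leukocytes of healthy dogs and between 21.2 and 45.4 CPM (median 36.5) in those of dogs with OS (log2 fold change -0.28 ± 0.12 SE, edgeR adjusted p = 0.819). In B cells KIF20B lay between 78.5 and 129 CPM and between 60.8 and 98.8 CPM (log2 fold change -0.25 ± 0.12 SE, edgeR adjusted p = 0.988). B cells were 4079 of 32841 leukocytes in healthy dogs and 2917 of 43336 in dogs with OS. Their part in the KIF20B sum over all leukocytes was not tested. In monocytes, ATAD2 lay between 16.2 and 32.1 CPM (median 23.9) and between 13.9 and 26.5 CPM (median 17.6) (log2 fold change -0.32 ± 0.13 SE, edgeR adjusted p = 0.773). None of the 3 genes separated the groups. The 4 members below 0.05 by DESeq2 in all leukocytes were GINS2, KIF20B, AURKA, a kinase of the spindle poles, and CENPE, each with a negative log2 fold change. AURKA lay between 4.81 and 6.59 CPM (median 6.01) in healthy dogs and between 3.57 and 5.61 CPM (median 4.68) in dogs with OS (log2 fold change -0.24 ± 0.12 SE, edgeR adjusted p = 0.848). CENPE lay between 7.42 and 9.46 CPM (median 8.86) and between 4.61 and 9.26 CPM (median 6.87) (log2 fold change -0.26 ± 0.13 SE, edgeR adjusted p = 0.848). The groups overlapped in both.

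In T and NK cells, the S members with the highest levels had ranges that overlapped between the groups. ATAD2 lay between 67.2 and 113 CPM (median 82.6) in healthy dogs and between 51.1 and 87.2 CPM (median 76.3) in dogs with OS. POLA1 lay between 57.7 and 126 CPM (median 63.0) and between 53.8 and 110 CPM (median 60.7). TYMS lay between 26.8 and 53.0 CPM (median 41.7) and between 26.8 and 53.3 CPM (median 44.7). The groups overlapped for each of these 3 genes. MCM6 lay between 27.3 and 41.8 CPM (median 30.0) and between 27.9 and 46.0 CPM (median 31.2), and RRM1 between 20.8 and 48.9 CPM (median 29.8) and between 20.9 and 43.2 CPM (median 28.2).

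The ranges of the G2/M members overlapped as well in T and NK cells. KIF20B lay between 50.5 and 76.4 CPM (median 52.1) in healthy dogs and between 41.98 and 60.3 CPM (median 50.002) in dogs with OS. AURKB lay between 14.1 and 24.4 CPM (median 17.9) and between 12.1 and 22.2 CPM (median 16.1). CENPE lay between 9.18 and 14.5 CPM (median 11.8) and between 5.79 and 12.8 CPM (median 9.85). TPX2, a spindle assembly factor, lay between 4.84 and 12.6 CPM (median 9.24) and between 5.40 and 13.3 CPM (median 7.98). NUSAP1, which binds spindle microtubules, lay between 4.35 and 12.2 CPM (median 6.47) and between 5.14 and 10.8 CPM (median 6.37).

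Over the 42 members the log2 fold change in T and NK cells had a median of -0.10, against 0.00 over all genes tested, and 32 members were lower and 10 higher in dogs with OS. The values ran from -0.80 for UBE2C (standard error 0.43, adjusted p = 1.00 from edgeR) to 0.35 for MCM5 (standard error 0.25, adjusted p = 1.00). Most standard errors were larger than the change they belonged to. In CD4 T cells the median was -0.05, in CD8/NK cells -0.16, in all leukocytes -0.17, in monocytes -0.03 and in B cells 0.13.

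**Figure D5:**
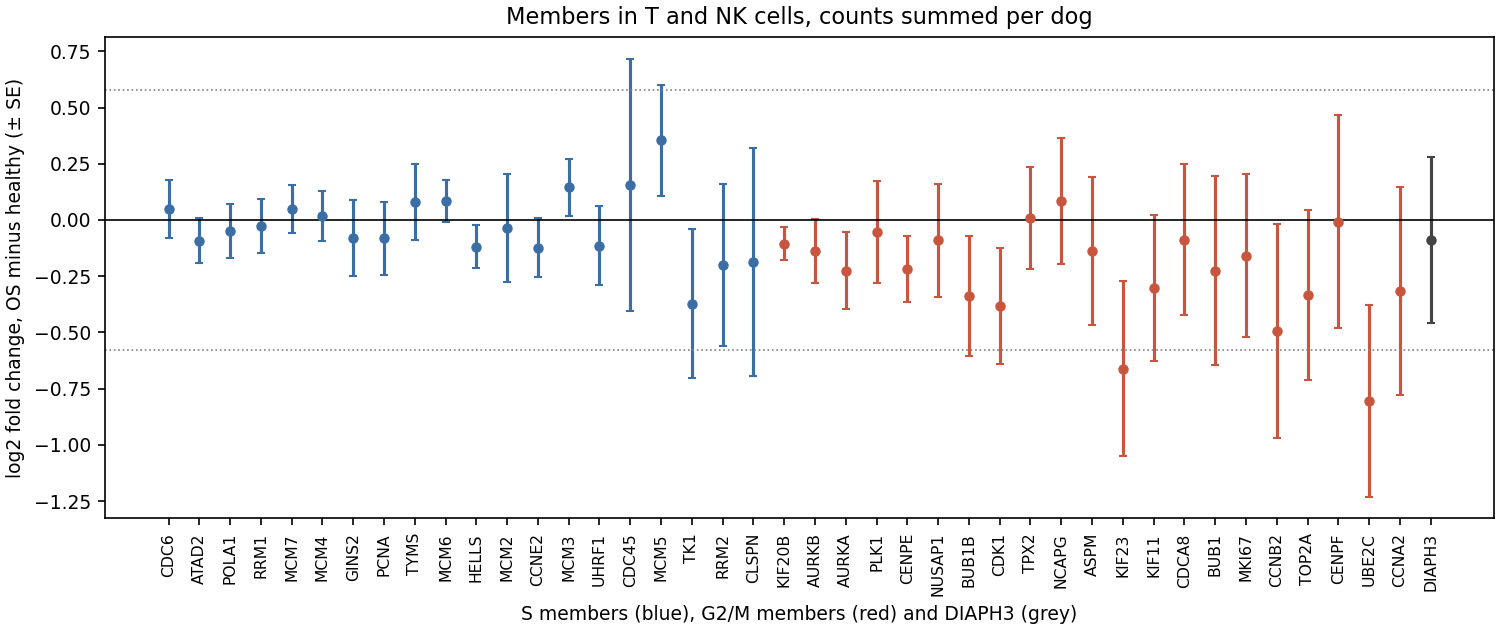
Log2 fold change of each member in T and NK cells, dogs with OS minus healthy dogs, with bars of 1 standard error derived from edgeR's F statistic. S members are blue, G2/M members red and DIAPH3 grey, and dotted lines mark 0.58 in either direction. Values run from -0.80 for UBE2C to 0.35 for MCM5 and none was called.

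Other cell cycle genes, 44 of the S phase and 74 of G2/M that are not members, served as a check of what the number of members picks out. Counts were summed per dog for cells with and without 4 or more members and compared with edgeR with the dog as a block, over genes other than the members. Between T and NK cells with and without 4 or more members, 55 of these 118 genes rose and 0 fell, 15 of 44 for S phase and 40 of 74 for G2/M, where 2.04% of all genes tested rose and 2.8% changed in either direction. The largest changes at a mean of at least 10 CPM are given as log2 fold changes. From the G2/M list they were those of H1-5, a linker histone (3.29, standard error 0.23), and KNL1, a kinetochore scaffold (0.97, standard error 0.12). The condensin genes NCAPG2 (0.97, standard error 0.08) and SMC2 (0.81, standard error 0.09) followed. From the S phase list they were BRCA2 of homologous recombination (1.09, standard error 0.11) and FANCD2 of crosslink repair (0.60, standard error 0.13). The phase in which H1-5 is made was not tested. H1-5 is also on the authors' list for cycling T cells. Of 28 regulators of the cycle 1 rose, E2F3 (1.18, standard error 0.09), and 1 fell.

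Cells chosen at equal depth showed more. When cells were chosen on 2000 UMIs drawn from each and the genes were read in the UMIs left over, 107 of the 118 genes rose in 672 T and NK cells against 41528 (41 of 44 and 66 of 74, against 4.71% of all genes that rose and 8.26% that changed), and 0 fell. With 10 or more members, in 224 T and NK cells against 33866 of 13 dogs, 111 rose (42 of 44 and 69 of 74, against 7.1% of all genes that rose and 18.7% that changed). The largest changes among G2/M genes were those of GTSE1 (log2 fold change 8.52, standard error 0.36), HJURP, which loads centromeric histone (8.11, standard error 0.38), NUF2 of the kinetochore (7.87, standard error 0.30) and CENPA, the centromeric histone itself (7.73, standard error 0.41). Among the S phase genes reported they were RAD51AP1 (5.14, standard error 0.23), the repressor E2F7 (5.13, standard error 0.33) and E2F8 (4.93, standard error 0.29). Each of these 7 genes was higher in 13 of 13 dogs. The 7 genes that did not pass were BLM (0.26), GINS3 (0.44), SGO1 (-0.14), CDC25B (-0.06), SKA1 (-0.11), LBR (0.27) and PSRC1 (0.43).

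Regulators of the cycle moved in both directions in T and NK cells with 10 or more members, with 6 of 28 rising (7.1% of all genes rose) and 10 falling (11.6% of all genes fell). The activator E2F3 rose (log2 fold change 2.64), as did CDK4, the kinase that starts the cycle (1.56), the pocket protein RBL1 (1.28) and the inhibitor CDKN2C (1.99). CCND2, a cyclin of G1 phase, fell by 2.28 on the log2 scale, FOXP1, a factor of T cell quiescence, by 1.52, MYC by 1.34 and the antiproliferative gene BTG1 by 1.31. CDKN1B, the inhibitor p27, fell by 1.00. The list of regulators thus held inhibitors among both the genes that rose and those that fell. These changes, and those of T cell subset genes below, are relative to the UMIs of the summed cells. Their median over all genes tested was -0.33. T and NK cells with 10 or more members held a median of 12802 UMIs, against 5344 in all T and NK cells. Whether the genes that fell had fewer molecules per cell was not tested.

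Genes of T cell subsets also differed. Of 40, 7 rose (7.1% of all genes rose) and 11 fell (11.6% of all genes fell) with 10 or more members. The cells compared also lay in different clusters: of T and NK cells with 10 or more members 37.6% were CD8/NK cells and 4.49% other T cells, against 26.3% and 13.5% of all T and NK cells. CD4 T cells were 57.1% against 52.9%, and T cells not assigned to these classes were 0.816% against 7.27%. In the clustering without upper limits, 49 of 243 T and NK cells within the limits with 10 or more members were CD8/NK cells, against 11509 of all 43951, so the direction of the CD8/NK difference depended on the clustering. The part of this in the genes below was not tested. The genes that fell were led by genes of naïve and memory T cells, CCR7 (log2 fold change -2.62, standard error 0.19), LEF1 (-2.44, standard error 0.14), SATB1 (-2.24, standard error 0.14) and IL7R (-2.24, standard error 0.14), each lower in 13 of 13 dogs. The genes that rose at a mean of at least 10 CPM were led by LAG3 (1.91, standard error 0.27) and PDCD1 (1.44, standard error 0.24), inhibitory receptors of activated T cells, and GZMK (0.90, standard error 0.14) and IKZF2 (0.80, standard error 0.15). GZMB, a cytotoxic granule protease, rose (0.71, standard error 0.17), CD4 fell (-0.77, standard error 0.16), CD8A was at -0.08 (standard error 0.21, adjusted p = 0.810 from edgeR) and FOXP3 at 1.57 (standard error 0.54, adjusted p = 0.0235).

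The limit on the number of members changed some of these signs. With 4 or more members 5 of the 40 T cell subset genes rose (2.04% of all genes rose) and 9 fell (0.762% of all genes fell). GZMB fell (-0.67, standard error 0.05) and CD8A fell (-0.62, standard error 0.07), CD4 was at 0.20 (standard error 0.04), under the fold required, and FOXP3, the regulatory T cell factor, rose (0.84, standard error 0.22). The 4 genes that fell most were the chemokine CCL5 (-0.93), the receptors KLRB1 (-0.92) and KLRD1 (-0.81) and the transcription factor TBX21 (-0.81), genes of cytotoxic cells. When the cells with 4 or more members were chosen at 2000 UMIs, GZMB rose (0.62, standard error 0.12). CD4 T cells, with the larger share of cells with 4 or more members, were deeper than CD8/NK cells (median 5665 and 4444 UMIs), and the part of depth and of these classes in the signs above was not tested. In 2000 UMIs per cell, GZMB had a UMI in 84 of 245 T and NK cells with 10 or more members (34.3%), in 14.2% of those with 4 to 9 and in 22.2% of those with fewer. LEF1 had one in 49 of the 245 cells, and in 58.2 and 56.1% of the other classes, and CTLA4 in 24.5, 16.97 and 13.3%. CD4 was seen in 9.80, 20.6 and 16.0% and CD8A in 10.6, 7.11 and 10.6%. Neither gene was seen in 79.6% of the cells with 10 or more members at this depth.

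Markers of plasma cells and B cells were read in the same T and NK cells. The 12 plasma cell markers summed to 244 CPM in T and NK cells with 10 or more members and to 137 CPM in those with fewer than 4, against 8624 CPM in plasma cells. JCHAIN, the joining chain of antibody, had a UMI in 5 of the 245 cells (2.04%) at 2000 UMIs, in 0.646% of T and NK cells with fewer than 4 members and in 86.9% of plasma cells. Of the 11 B cell markers, CD79A was seen in 98.05% of T and NK cells with fewer than 4 members and so does not tell B cells apart in this annotation. The other 10 lay between 0 and 9.97 CPM each in T and NK cells with 10 or more members, and MS4A1 was seen in 0 of 245 at 2000 UMIs, against 35.7% of B cells. Markers of both kinds were thus below their level in B and plasma cells, apart from CD79A, but the plasma cell list was higher with 10 or more members than with fewer than 4, and its part in these results was not tested.

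In plasma cells with 10 or more members, 133 cells against 460 in 10 dogs, 101 of the 118 other cell cycle genes rose and 0 fell (35 of 44 and 66 of 74, against 3.64% of all genes that rose and 7.5% that changed). NUF2 rose by 5.55 on the log2 scale (standard error 0.33), KIF14 by 5.05 (standard error 0.60), CKAP2L by 4.92 (standard error 0.44) and CDC20, the activator of the anaphase-promoting complex, by 4.72 (standard error 0.24). For S phase, CENPU rose by 4.84 (standard error 0.51), RAD51AP1 by 4.61 (standard error 0.49), FANCD2 by 3.22 (standard error 0.41) and MCM10 by 3.11 (standard error 0.35). Of 25 regulators tested, CDK4 (1.04) and RBL1 (1.65) rose and CDKN1B (-0.98) and BTG2 (-0.77) fell. CDK4, RBL1 and CDKN1B thus had the same sign in plasma cells as in T and NK cells.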

How the data were processed

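The deposited matrices hold counts of UMIs per gene and barcode, which the authors made with Cell Ranger 7.0.0 on CanFam3.1 and analysed in Seurat, per the labels. Alignments were run both counting introns and leaving them out, and the sources used here do not say which run the matrices hold. From 93013 barcodes, those with over 200 and under 4500 genes, over 500 and under 20000 UMIs and under 10% mitochondrial UMIs were kept (84345), and 3938 doublets scored by Scrublet (scanpy 1.11.5) were removed. The remaining 80407 cells were clustered on 2000 variable genes without cell cycle, ribosomal or mitochondrial genes, with 30 principal components, a correction by dog and Leiden clustering (leidenalg 0.10.2, resolution 1.00, 20 neighbors, 30 clusters), and clusters were named from marker genes. Clusters of platelets (3304 cells), erythrocytes (220), cells mixed with platelets (665) and unnamed cells (41) were left out.

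A member counted as detected at 1 UMI or more. Shares per dog (dogs with at least 25 cells) were compared by exact two-sided Wilcoxon rank-sum tests over all splits of the dogs, with Benjamini-Hochberg adjustment over lineages. Counts summed per dog were tested with edgeR 4.0.16 (R 4.3.3, quasi-likelihood, TMM, genes with at least 10 counts, Benjamini-Hochberg adjusted p below 0.01 and absolute log2 fold change above 0.58), with DESeq2 1.42.0 as an alternative. Standard errors given with edgeR were derived, as the absolute log2 fold change divided by the square root of the quasi-likelihood F statistic. In simulated counts for T and NK cells (15270 genes, 200 changed), 98% of 3-fold and 21% of 1.5-fold changes were called. Alternatives were other limits on members, thinning, filters, normalizations, clusterings and leaving out dogs. The limit of 10 members, the set without CDC6 and thinning without upper limits were chosen after seeing the data. The members and lists were chosen with earlier results of these data known.

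Values by dog were given for the 5 S and 5 G2/M members with the highest mean CPM in T and NK cells and for members with an unadjusted p below 0.05, and, of other lists, for the 4 genes with the largest change in each direction at a mean of at least 10 CPM, plus CD4, CD8A, FOXP3 and GZMB. Some genes that this rule selects are not reported here. Other named genes were chosen after their values were seen. CPM were computed from the UMIs of the summed cells, and a matrix held 7740230 to 56510134 UMIs.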

Additional observations from a re-analysis of the deposited data

Results flagged for a closer look

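In 46 sets of 4 to 10 dogs, the highest or lowest dog was compared with the rest by Dixon's gap ratio at the 95% level. Chance passes this level in about 1 of 20 sets of normally distributed values. That rate does not hold for shares of few cells with many dogs at 0, as in some of these sets. The ratio marked 4 dogs with OS. In neutrophils, dog 6 had 1.205% of cells with 4 or more members (1 of 83 cells), against 0 to 0.334% in the other dogs with OS. In CD4 T cells, dog 10 had 1.333% of cells with 10 or more members (15 of 1125), against 0.211 to 0.767%. In other T cells, dog 1 had 1.361% with 10 or more members (2 of 147), against 0 to 0.472%. In monocytes, dog 4 had 0.3571% with 10 or more members (1 of 280), against 0 to 0.0872%. The cause was not tested for any of them.

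Among barcodes above the upper limits on genes and UMIs, which are left out unless stated otherwise, 590 plasma cells and 144 T and NK cells held 10 or more members, more than the 145 plasma cells and fewer than the 245 T and NK cells of this kind within the limits.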

How the results depend on the processing

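Of 538 alternative values over 19 results, 486 were labelled the same, 44 turned in direction and 7 moved. In 1 value a threshold was passed that the reported value had not passed, and 0 were lost. For shares, the same means an unchanged direction and side of the threshold. For counts of genes called it means an equal or near count, and the counts of members called, 0 in every fit, have no direction. In 150 fits of OS against healthy dogs, the reported ones included, no member was called, and at most 5 had an unadjusted p below 0.05. Of 336 alternative comparisons of shares, 1 had p below 0.05 by the exact test, that of B cells at 2000 UMIs (-0.676 percentage points, exact p = 0.0417), and the alternatives for B cells ran from this p to 1. Few cells with 10 or more members per dog limit the precision of their shares, and shallow granulocytes can hold members that were not detectable at their depth.

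The differences that turned are given in percentage points, OS minus healthy. With the reported limits, they had been -1.87 in all leukocytes, -2.86 in T and NK cells, -2.92 in CD4 T cells, -0.872 in CD8/NK cells, -2.87 in other T cells, -1.50 in B cells, -6.08 in plasma cells, -2.99 in monocytes, 3.21 in dendritic cells, 0.0678 in neutrophils and -0.970 in eosinophils and basophils. With 10 or more members, they were 0.0154 in all leukocytes, 0.0350 in T and NK cells, 0.0841 in CD4 T cells, 0.0849 in CD8/NK cells, 0.0891 in other T cells and 0.0523 in monocytes. With 10 or more members and no upper limits, they were 0.103 in CD8/NK cells, 0.137 in other T cells, 0.0790 in B cells, 0.198 in monocytes and 0.363 in eosinophils and basophils. At 2000 UMIs they were 0.239 in CD8/NK cells, 2.62 in plasma cells, 0.0637 in monocytes, -0.528 in dendritic cells and -0.174 in neutrophils. At 2000 UMIs with no upper limits, added after seeing the data, they were 0.396 in CD8/NK cells, 0.921 in plasma cells, 0.128 in monocytes and -0.180 in neutrophils. With doublets kept, dendritic cells were at -0.353. Neutrophils were at -0.268 with 3 or more members and at -0.0527 without the correction across dogs. Leaving out 1 dog at a time gave -3.10 to -0.286 in all leukocytes, -4.32 to -0.514 in T and NK cells, -4.50 to -0.362 in CD4 T cells, -4.40 to -1.51 in other T cells, -8.28 to -2.76 in plasma cells, -4.06 to -1.17 in monocytes, 0.859 to 6.08 in dendritic cells, -1.13 to -0.550 in eosinophils and basophils, -2.32 to 1.07 in CD8/NK cells (the sign turned without healthy dog 2, healthy dog 5 or dog 10 with OS), -2.71 to 0.209 in B cells (without healthy dog 2) and -0.0467 to 0.111 in neutrophils (without dog 6 with OS). The cause was not tested.

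The difference in the G2/M-leading share of T and NK cells, 0.0160, was -0.0252 with 3 or more members, -0.846 at 2000 UMIs, -3.33 at 2000 UMIs with no upper limits, -0.267 with no upper limits, -0.00933 at a clustering resolution of 0.50, -0.0279 without the correction, -12.9 with 10 or more members, -3.83 with 10 or more and no upper limits, and -0.269 to 0.436 with 1 dog left out, where it turned for 4 healthy dogs and 4 dogs with OS. The smallest exact p over its 31 alternatives was 0.0653. The count of other cell cycle genes that rose, 55, was 107 in held-out UMIs, 111 with 10 or more members, 101 in plasma cells with 10 or more, and 53 to 56 with 1 dog left out.

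Replicate numbers do not pair the dogs, as no label links them and same-numbered dogs had correlations from -0.239 to 0.144. With a replicate block, the difference was -0.871 in all leukocytes (exact p = 0.672) and -1.64 in T and NK cells (exact p = 0.563), it was 0.173 for the G2/M-leading share (exact p = 0.797), and no member was called. Without the block of dogs (no replicate block), 51 other cell cycle genes rose.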
